A study of Sus scrofa with 599 samples.

Results

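The swine major histocompatibility complex (MHC) class II genes were followed through weight gain and weight loss in 4 pig adipose tissues (ATs). Members were taken by symbol from the 21280 protein-coding genes (PCGs) of the deposited expression tables, of which 14821 carried a symbol. Of 10 listed symbols, 8 had a row. SLA-DQB1, SLA-DMA, SLA-DMB, SLA-DOA, CD74 and CIITA stood under their own symbols, and SLA-DRA and SLA-DOB under the symbols of their human counterparts, HLA-DRA and HLA-DOB. SLA-DRB1 and SLA-DQA1 had no row under either name. A row that the study's supplementary gene table names SLA-DQA1 is given beside the members below and is not counted among them.

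The pigs were 2-year-old adult females of the Bama breed, a Chinese miniature pig. The control group (NC) stayed on a normal diet. The weight gain group (WG) was fed a high-fat diet for 22 weeks. The weight loss group (WL) was drawn from pigs that had completed the same high-fat diet and was then held at 10% of the normal caloric intake for 12 weeks, so that the effect of the restriction and that of the added weeks cannot be told apart. Visceral AT came from the greater omentum (GOM), the mesentery (MAD) and the retroperitoneal depot (RAD), and subcutaneous AT from the upper layer of backfat (ULB). RNA-seq was available for samples of all 12 groups. NC had 9 GOM, 12 MAD, 12 RAD and 5 ULB libraries, WG had 45, 36, 39 and 38, and WL had 10 of each AT. In situ Hi-C, which maps contacts between chromatin segments, was available for 240 samples. ChIP-seq of acetylated histone H3 lysine 27 (H3K27ac) gave 18 enhancer tables, most of them over pooled samples. RNA came from whole tissue, so the adipocytes and the immune, vascular and stromal cells between them all contributed. In such bulk samples, fewer cells of a type and less RNA per cell cannot be told apart. The adipocyte hormone gene ADIPOQ was present in every library, between 343 and 10577 TPM (transcript abundance scaled to a fixed total per library).

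MHC class II molecules are paired alpha and beta chains that present peptides from ingested proteins to CD4+ T cells. DR and DQ (SLA-DRA, SLA-DQA1 and SLA-DQB1 encode chains of these) are the presenting molecules. The invariant chain CD74 occupies their groove after synthesis, the DM pair (SLA-DMA and SLA-DMB) removes its last fragment and loads peptide, and the DO pair (SLA-DOA and SLA-DOB), best known from B cells, restrains DM. CIITA is the coactivator that switches the whole set on. It does not bind DNA itself and docks on RFX, CREB and NF-Y factors that sit on the conserved X and Y boxes of class II promoters. Macrophages, dendritic cells and B cells express class II constitutively, and interferon gamma induces it in many other cells.

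In the Sscrofa11.1 assembly (RefSeq annotation), the 6 class II chains lay within 357.629 kb of chromosome 7. SLA-DRA spanned chr7:24825037-24830650 on the plus strand. SLA-DQB1 (chr7:24969034-24977238), SLA-DOB (chr7:25030435-25038196), SLA-DMB (chr7:25119278-25125089), SLA-DMA (chr7:25133494-25137928) and SLA-DOA (chr7:25178866-25182665) followed in this order on the minus strand. CD74 lay at chr2:151402210-151409924 and CIITA at chr3:32171706-32230775, both on the minus strand. RefSeq placed SLA-DQA1 at chr7:24953472-24959313 (plus) and SLA-DRB1 at chr7:24901386-24914016 (minus), beside SLA-DQB1.

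The promoter sequence that the class II genes share is shown because it is where the factors that CIITA docks on are known to sit. Windows of 300 bases, from 250 before to 50 after each annotated start, were searched on both strands for X box letters (AGNNAC followed directly by NNATG) and Y box letters (GATTGG). These letters were chosen after the members' promoters had been read. Of 19569 promoters, 2.26% held the X box letters and 16.02% the Y box letters, and 7 promoters (0.0358%) held both on the same strand with 10 to 30 bases between them. SLA-DRA, SLA-DQB1, SLA-DMA, SLA-DMB and the unmeasured SLA-DRB1 were 5 of these 7. The stretches are given 5′ to 3′ on the gene's own strand, with the X and Y box letters in capitals.
SLA-DRA (chr7:24824958-24825006, plus): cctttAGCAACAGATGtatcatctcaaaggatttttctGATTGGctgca
SLA-DQB1 (chr7:24977317-24977366, minus): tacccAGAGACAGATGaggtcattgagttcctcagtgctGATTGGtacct
SLA-DMA (chr7:25137983-25138033, minus): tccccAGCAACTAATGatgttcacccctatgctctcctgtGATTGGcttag
SLA-DMB (chr7:25125130-25125178, minus): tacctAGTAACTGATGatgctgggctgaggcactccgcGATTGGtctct
SLA-DRB1 (chr7:24914072-24914119, minus): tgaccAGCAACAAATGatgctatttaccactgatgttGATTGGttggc
The X and Y letters were 22 bases apart in SLA-DRA and SLA-DMB, 23 in SLA-DQB1, 24 in SLA-DMA and 21 in SLA-DRB1. The X letters began 74 bases before the start of SLA-DRA, 84 before that of SLA-DMB, 98 before that of SLA-DRB1, 100 before that of SLA-DMA and 123 before that of SLA-DQB1. SLA-DOA, SLA-DQA1 and CIITA held only the Y box letters, which in CIITA lay after the annotated start. SLA-DOB and CD74 held only the core of the Y box letters (ATTGG), SLA-DOB on its own strand and CD74 on the opposite strand. The core stands in 35.4% of all promoters. A match is a description of letters and was not tested for binding.

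Before any comparison, the libraries were found to fall into 2 sets that the labels do not name. The sets were defined after the data had been seen, on the first principal component of 14412 PCGs other than the members, centred within each AT. This component held 30.7% of the variance and left an empty gap of 7.52% of its range. Set 1 held 104 libraries with a median of 18.7% of PCG TPM on 13 mitochondrially encoded genes (1.96 to 38.8%), and set 2 held 132 libraries with 2.18% (0.653 to 7.25%). Median depth was 18412178 counts in set 1 and 15700336 in set 2. NC had 30 set 1 and 8 set 2 libraries, WG had 72 and 86, and WL had 2 and 38. All 9 NC GOM libraries were in set 1, and all WL libraries of MAD, RAD and ULB were in set 2. Sample numbers present in several ATs stayed within 1 set for 42 of 45 numbers in WG, 8 of 10 in WL and 6 of 12 in NC. Nutritional group and library set thus overlap, and the members' calls below are given with all libraries and with the set as a term in the fit, and, for the main changes between nutritional groups, within a set where both groups had at least 2 libraries.

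The members themselves differed between the sets. SLA-DMA averaged 44.4 TPM over set 1 and 24.6 TPM over set 2, and SLA-DMB went the other way, from 18.9 to 47.2 TPM. SLA-DMA exceeded SLA-DMB in 104 of 104 set 1 libraries and in 8 of 132 set 2 libraries. The log2 ratio of SLA-DMA to SLA-DMB averaged 1.25 ± 0.39 (SD, n = 104) in set 1 and −1.01 ± 0.68 (SD, n = 132) in set 2. SLA-DMA and SLA-DMB encode both chains of 1 heterodimer and are adjacent genes, and the order of their TPM followed the library set in nearly every library. SLA-DQB1 averaged 264 TPM in set 1 and 558 TPM in set 2, SLA-DRA 189 and 281 TPM, and CD74 1288 and 974 TPM. SLA-DOA (9.13 and 8.17 TPM) and CIITA (12.0 and 10.9 TPM) were closest to equal between the sets. SLA-DOB averaged 4.87 TPM in set 1 and 7.98 TPM in set 2.

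**Figure D1:**
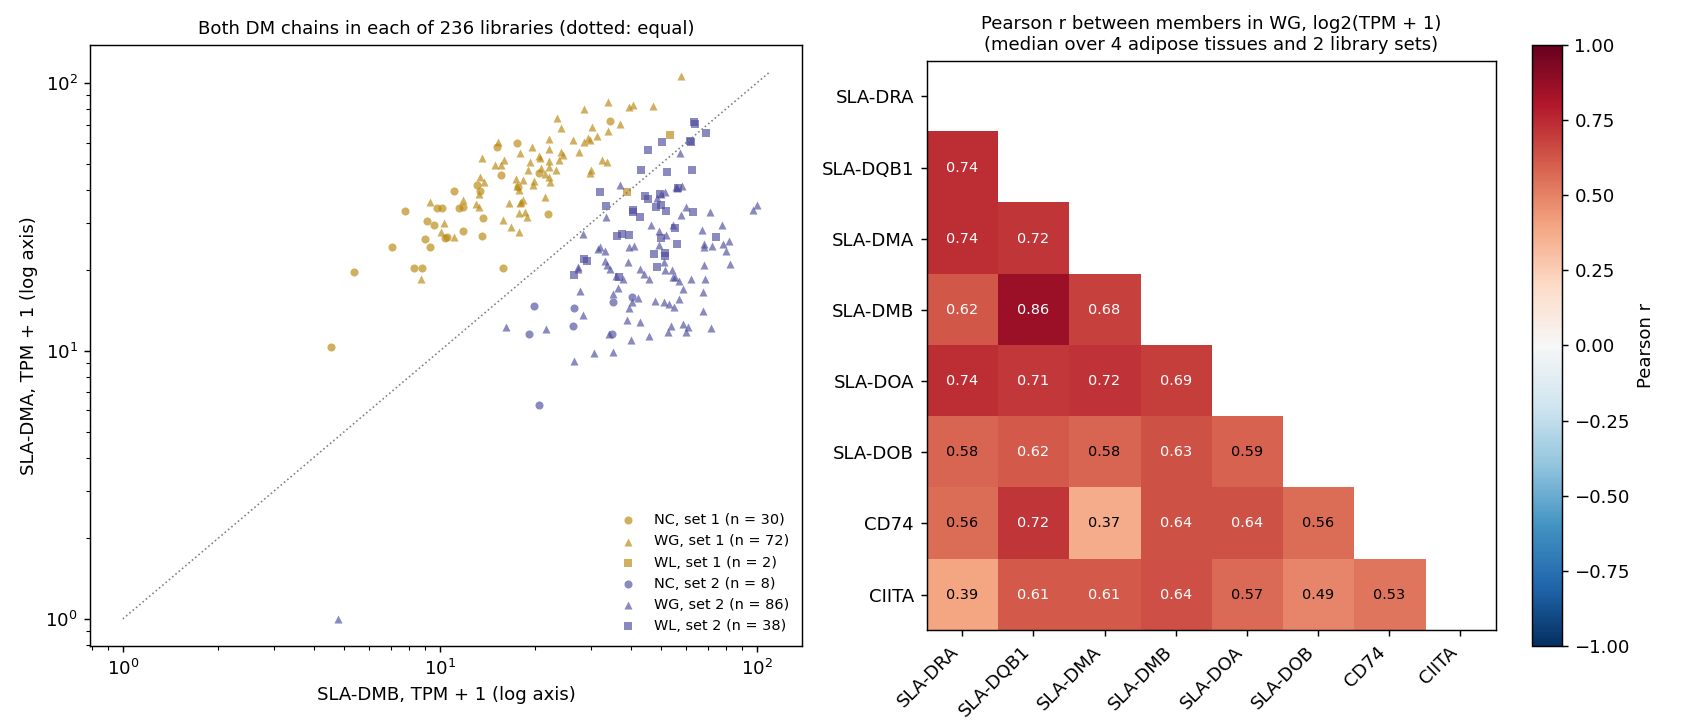
Left, SLA-DMA against SLA-DMB in each RNA-seq library (TPM + 1, log axes), with colour for the library set and shape for the nutritional group. Set 1 lies above the line of equal TPM in 104 of 104 libraries and set 2 mostly below it. Right, Pearson r between members in WG as the median over 4 ATs and both sets, from 0.37 (SLA-DMA with CD74) to 0.86 (SLA-DQB1 with SLA-DMB).

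Over the 12 groups, all 8 members had their highest mean TPM in WL MAD. This lead rests in part on the lymphocyte-rich WL MAD replicates 1, 6 and 7, described below. Over the other 7 WL MAD libraries, SLA-DOB averaged 8.37 TPM (10.1 in WL GOM) and SLA-DMB 47.0 TPM (51.6 in WL GOM). SLA-DMA averaged 39.5 TPM in those 7, against 45.1 TPM in NC GOM. The other members kept their highest mean in WL MAD, CIITA only narrowly (13.09 TPM there and in WL GOM). The lowest mean was in NC ULB for SLA-DRA, SLA-DMA, SLA-DOA, SLA-DOB and CIITA, in NC MAD for SLA-DQB1, and in NC RAD for SLA-DMB and CD74. The highest mean was 7.58 times the lowest for SLA-DOB, 3.84 for SLA-DMB, 3.50 for SLA-DQB1, 3.21 for SLA-DRA, 3.12 for SLA-DOA, 2.79 for CIITA, 2.28 for SLA-DMA and 1.80 for CD74. Groups next to each other in the order of means seldom differed beyond their spread: of 11 neighbouring pairs, the gap exceeded the smaller SD in 2 for SLA-DOB and CIITA, in 1 for SLA-DRA, SLA-DQB1 and SLA-DOA, and in 0 for SLA-DMA, SLA-DMB and CD74. By mean level, CD74 was the most abundant member, between 840 ± 180 TPM (NC RAD) and 1511 ± 467 TPM (WL MAD; each SD). SLA-DOB, between 2.92 ± 1.41 TPM (NC ULB) and 22.2 ± 25.9 TPM (WL MAD; each SD), was the least abundant in every group but WL MAD. There CIITA (19.2 TPM) and SLA-DOA (14.7 TPM) were lower. SLA-DQA1, by the study's name, ranged from 285 TPM in NC MAD to 796 TPM in WL MAD. In 1 WG GOM library, SLA-DMA, SLA-DOA and SLA-DOB were at 0. It was also the shallowest of all libraries, with 84.2% of its TPM on PCGs.

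**Figure D2:**
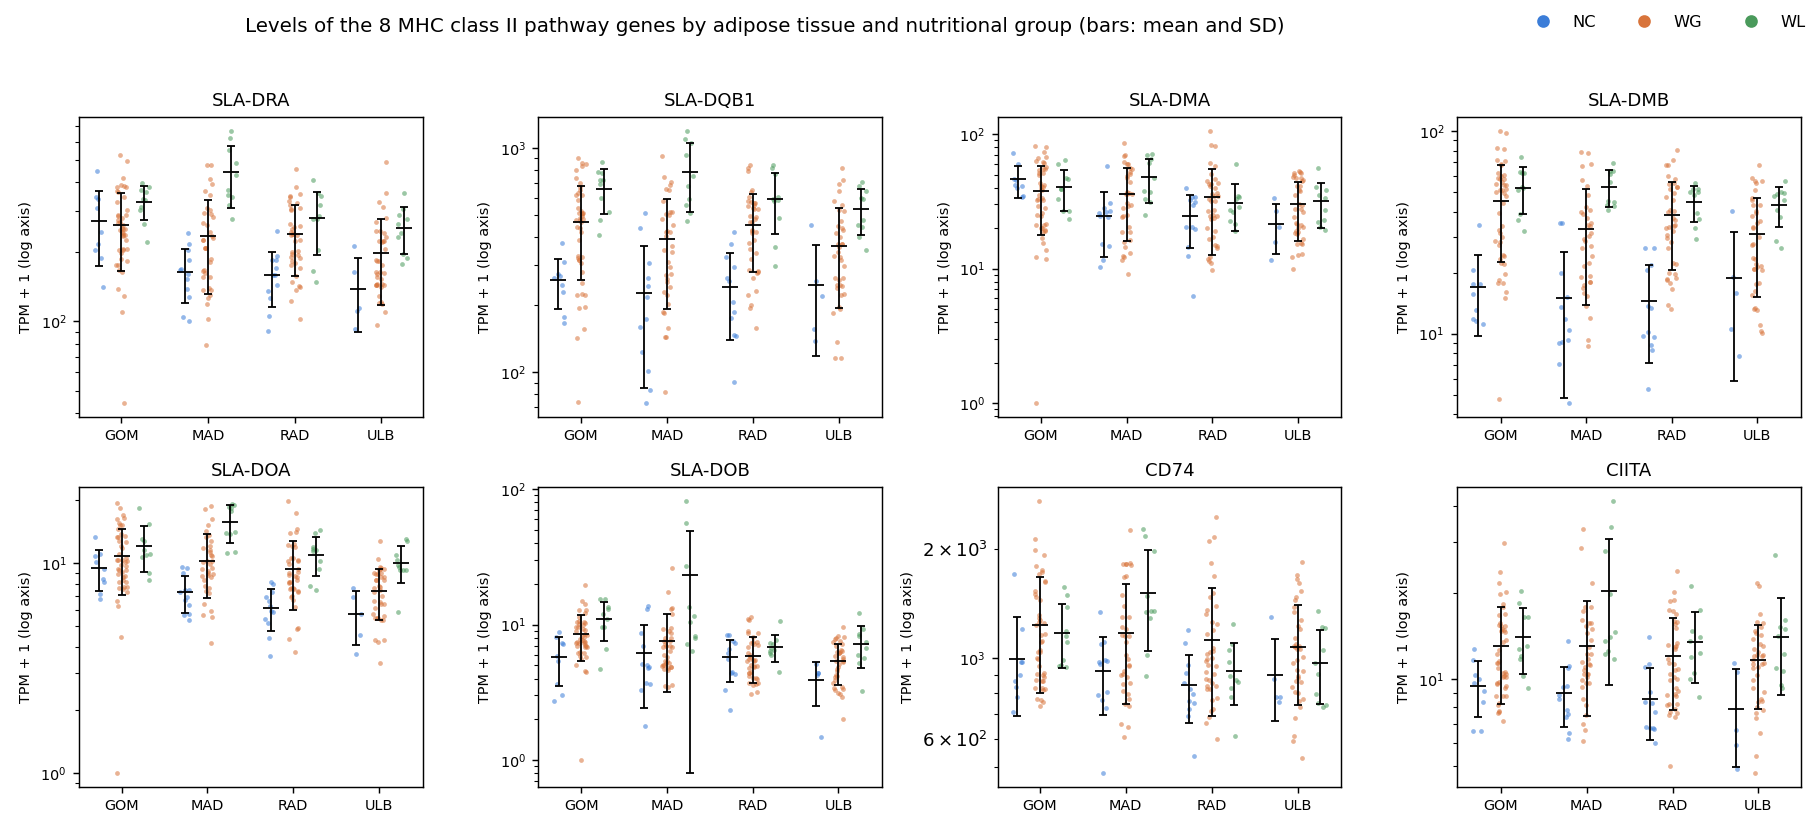
Level of each of the 8 members (TPM + 1, log axis) in every library, by AT and nutritional group, with mean and SD. WL MAD has the highest mean in all 8 panels. Without the lymphocyte-rich WL MAD replicates 1, 6 and 7, this no longer held for SLA-DMA, SLA-DMB and SLA-DOB. The lower bar of SLA-DOB in WL MAD is cut because the SD (25.9) exceeds the mean (22.2).

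With weight gain and all libraries, SLA-DMB was the member called higher in all 3 visceral ATs, and with the library set in the fit in MAD and RAD. In NC RAD it ranged from 4.36 to 25.6 TPM (median 10.8) and in WG RAD from 12.3 to 79.3 TPM (median 33.4). In NC MAD it ranged from 3.54 to 34.3 TPM (median 10.1) and in WG MAD from 7.71 to 77.3 TPM (median 28). In NC GOM it ranged from 10.1 to 33.4 TPM (median 14.6) and in WG GOM from 3.77 to 99.5 TPM (median 48.1). The WG ranges were wide and overlapped NC in each AT, with the WG median above most NC libraries. With all libraries, the log2 fold change was 1.28 in RAD (SE 0.26, adjusted p = 0.000135, edgeR quasi-likelihood test with Benjamini-Hochberg adjustment over all PCGs tested), 1.02 in MAD (SE 0.30, adjusted p = 0.0125) and 1.19 in GOM (SE 0.33, adjusted p = 0.00389). SLA-DQB1 in RAD, with a log2 fold change of 0.70 (SE 0.20, adjusted p = 0.00578), was the only other member called at adjusted p below 0.05 and a fold above 1.5. Of 32 member values, 4 were thus higher and 0 lower, and 11 were higher and 1 lower at an unadjusted p below 0.05. Of all PCGs, the share called higher was 12.2% in GOM, 5.38% in MAD and 7.1% in RAD, and 0.507% in ULB, where no member was called. SLA-DMB had a log2 fold change of 0.68 in ULB, with a median of 14.9 TPM in NC (n = 5) and 26.5 TPM in WG. Its change was not shown to differ between ATs (adjusted p = 0.748, edgeR interaction of nutritional group and AT).

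The rise of SLA-DMB in MAD and RAD was present within sets, and that in GOM was not called once the set was in the fit. In set 1, SLA-DMB averaged 10.2 ± 4.74 TPM in NC RAD (n = 9) and 24.7 ± 12.5 TPM in WG RAD (n = 17), and in set 2 it averaged 23.5 ± 3.35 TPM (n = 3) and 47.0 ± 14.9 TPM (n = 22; each SD). In set 1 of MAD the means were 9.01 and 19.5 TPM, and in set 2 29.1 and 45.5 TPM. NC GOM held only set 1 libraries, at 16 TPM against 23.7 TPM in the set 1 libraries of WG GOM. With the set as a term, SLA-DMB changed by 0.94 on the log2 scale in RAD (SE 0.18, adjusted p = 7.02e-05, edgeR), by 0.73 in MAD (SE 0.18, adjusted p = 0.00234) and by 0.14 in GOM (SE 0.22, adjusted p = 0.716). Set 1 alone gave 0.94 in RAD (adjusted p = 0.00288) and 0.80 in MAD (adjusted p = 0.0116, edgeR). Set 2 alone gave 0.92 (adjusted p = 0.0645) and 0.61 (adjusted p = 0.383) with 3 NC libraries each.

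Other members moved with the set as a term. SLA-DMA, the partner chain of SLA-DMB, was then higher in WG RAD by 0.59 (SE 0.17, adjusted p = 0.00541, edgeR). SLA-DRA was lower in WG GOM by −0.73 (SE 0.19, adjusted p = 0.00554), against −0.31 with all libraries. SLA-DQB1 in RAD had 0.41 (SE 0.15, adjusted p = 0.0212), below the fold of 1.5. Within set 1, SLA-DRA in GOM ranged from 140 to 447 TPM in NC (median 244) and from 109 to 364 TPM in WG (median 204), with overlapping ranges. With the set as a term, 3 member values were called higher and 1 lower, and 2 of the 4 calls made with all libraries were among them. Of all PCGs, this fit called 5.28% higher in MAD, 7.29% higher in RAD and 8.36% lower in GOM. Set 1 alone called SLA-DMB in MAD and RAD (4.74% and 6.67% of PCGs called higher), SLA-DOA in RAD (0.66, adjusted p = 0.0072, edgeR) and SLA-DRA as lower in GOM (−0.72, adjusted p = 0.00149, with 8.79% of PCGs called lower). Set 2 alone called no member.

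Genes that prepare peptides for class II rose with SLA-DMB in MAD and RAD, and so did macrophage markers. Of 7 genes of antigen processing, 6 were called higher in WG MAD and 6 in WG RAD with all libraries, and 7 and 6 with the set as a term. IFI30, the lysosomal thiol reductase that unfolds antigens, rose by 1.35 on the log2 scale in MAD (adjusted p = 0.000247, edgeR) and by 1.31 in RAD. CTSS, the protease that trims the invariant chain, rose by 1.41 and 1.46. MARCHF1, a ubiquitin ligase that withdraws class II from the cell surface, rose by 1.07 in MAD. Of 10 macrophage markers, 10 were called higher in MAD and 5 in RAD, and 10 and 7 with the set as a term, with a median log2 fold change of 1.02 in MAD and 0.74 in RAD beside a median near 0 (−0.01 and 0.00) over all PCGs. The summed level of these 10 markers ranged from 240 to 931 TPM in NC MAD and from 383 to 2137 TPM in WG MAD, and from 259 to 1005 TPM in NC RAD and from 454 to 2877 TPM in WG RAD. In GOM with all libraries, 3 of 7 processing genes were called higher, and of 10 macrophage markers 1 was higher (the scavenger receptor MSR1, 1.03) and 1 lower (the complement gene C1QB, −0.83). With the set as a term, 0 of either list were called in GOM. In ULB, no gene of either list was called. The part of macrophage number in the change of the class II genes was not tested. Of 6 tested genes of the factors that CIITA docks on, RFXANK was called higher in WG GOM with all libraries (0.66, adjusted p = 0.0208, edgeR) and not with the set as a term (0.22, adjusted p = 0.519), and 0 were called in the other ATs. CIITA itself was not called with weight gain in any AT.

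**Figure D3:**
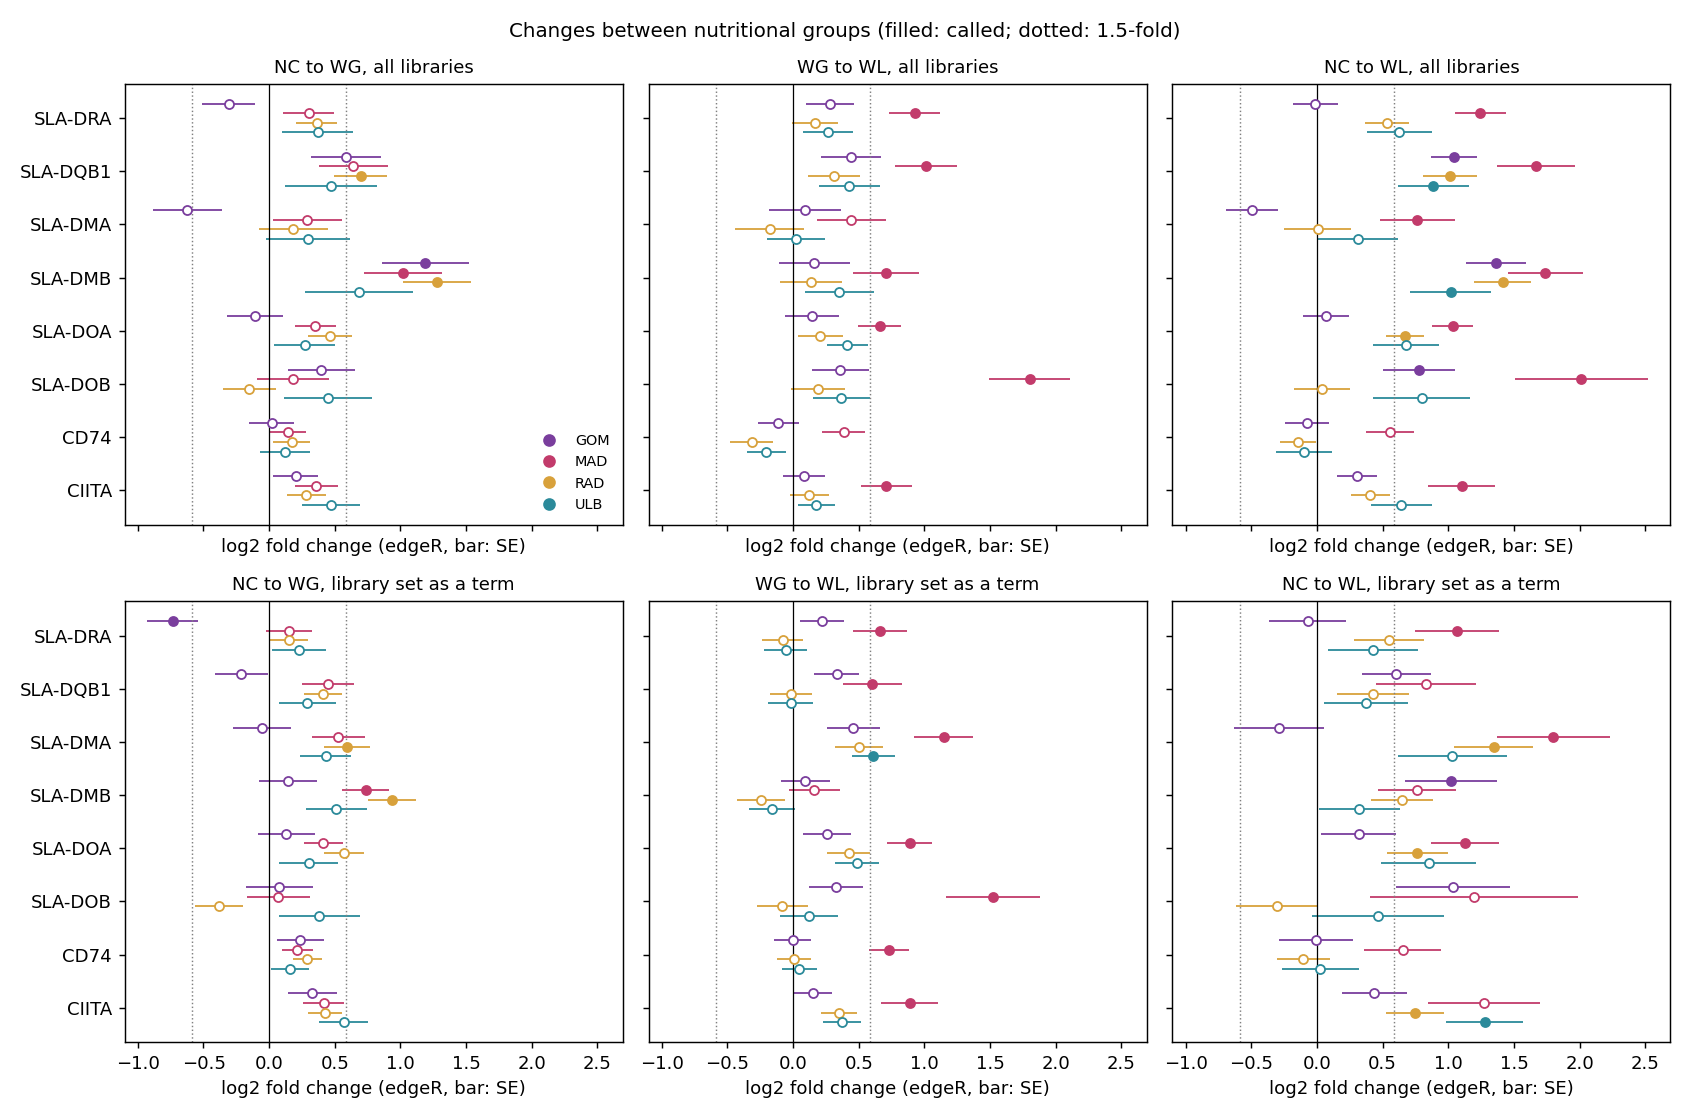
Log2 fold change (edgeR, bar: SE) of each member between nutritional groups in the 4 ATs, with all libraries (top) and with the library set as a term (bottom). Filled points are called at adjusted p below 0.05 and a fold above 1.5. The calls from WG to WL lie in MAD except SLA-DMA in ULB (bottom), and SLA-DMB from NC to WG is called in GOM only at the top.

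With weight loss, the members rose in MAD. From WG to WL with all libraries, 6 of 8 members were called higher in MAD and 0 in GOM, RAD or ULB, and 0 were lower in any AT (of 32 member values, 8 were higher and 0 lower at an unadjusted p below 0.05). Of all PCGs, 8.26% were called higher in MAD, and 2.55% in GOM, 2.24% in RAD, 3.22% in ULB. SLA-DRA ranged from 78.2 to 474 TPM in WG MAD (median 216) and from 278 to 670 TPM in WL MAD (median 400). SLA-DQB1 ranged from 80.7 to 924 TPM (median 357) and from 473 to 1194 TPM (median 715). SLA-DOB ranged from 2.49 to 25.4 TPM (median 5.61) and from 5.41 to 81.4 TPM (median 10.1). The ranges overlapped for each, and every WL MAD library lay above the WG MAD median for SLA-DRA and SLA-DQB1. The log2 fold change was 1.80 for SLA-DOB (SE 0.31, adjusted p = 2.95e-05, edgeR), 1.01 for SLA-DQB1 (SE 0.23, adjusted p = 0.00107), 0.93 for SLA-DRA (SE 0.19, adjusted p = 0.000391), 0.71 for CIITA (SE 0.20, adjusted p = 0.00541), 0.71 for SLA-DMB (SE 0.25, adjusted p = 0.0291) and 0.66 for SLA-DOA (SE 0.16, adjusted p = 0.00193).

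With the set as a term, 7 members were called higher in MAD and SLA-DMA also in ULB. SLA-DMA, which all libraries together did not call, rose most clearly after SLA-DOB, by 1.15 in MAD (SE 0.23, adjusted p = 0.000136, edgeR) and by 0.61 in ULB (SE 0.16, adjusted p = 0.00264). Within set 2, which held all WL MAD libraries, SLA-DMA averaged 20.6 ± 11.5 TPM in WG MAD (n = 17) and 47.0 ± 17.4 TPM in WL MAD (n = 10). CD74 rose by 0.73 (SE 0.15, adjusted p = 0.000313), from 893 ± 216 TPM to 1511 ± 467 TPM within set 2. SLA-DOA rose by 0.89, CIITA by 0.89, SLA-DRA by 0.66, SLA-DQB1 by 0.60 and SLA-DOB by 1.52. SLA-DMB did not pass the test, with 0.16 (adjusted p = 0.537). Within set 2 alone the same 7 members in MAD and SLA-DMA in ULB (0.59, adjusted p = 0.0116, edgeR) were called. Of all PCGs, the fit with the set called 10.2% higher in MAD and 7.42% in ULB, and set 2 alone 10.2% and 6.58%.

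The MAD libraries were not alike in their lymphocyte content. WL MAD replicates 1, 6 and 7 and WG MAD replicate 31 stood apart with 219 to 630 TPM summed over 7 B cell markers, against 22.3 to 30.9 TPM in the other 7 WL and 10.0 to 68.0 TPM in the other 35 WG libraries. MS4A1, the gene of the B cell surface protein CD20, ranged from 61.9 to 235.97 TPM in these 3 WL libraries and from 0.73 to 2.77 TPM in the other 7. CD3E, a chain of the T cell receptor complex, ranged from 48.7 to 107 TPM and from 4.89 to 11.2 TPM. SLA-DOB was 25.9, 55.7 and 81.4 TPM in the 3 libraries and 5.41 to 12.5 TPM in the other 7, without overlap. CIITA (27 to 40.9 against 10.8 to 18.9 TPM) and CD74 (1969 to 2263 against 891 to 1483 TPM) did not overlap either, and SLA-DOA (17.44 to 18.1 against 10.2 to 17.40 TPM) was separated by a narrow margin. SLA-DRA (485 to 670 against 278 to 551 TPM), SLA-DQB1 (927 to 1194 against 473 to 1056 TPM), SLA-DMA (59.6 to 69.4 against 24.1 to 70.3 TPM) and SLA-DMB (60.6 to 68.1 against 39.6 to 62.4 TPM) overlapped. How many of all PCGs were without overlap between these 3 and 7 libraries was not counted. ADIPOQ ranged from 478 to 2266 TPM in the 3 and from 2035 to 4848 TPM in the other 7. Whether lymphoid tissue was taken with these samples was not tested.

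**Figure D4:**
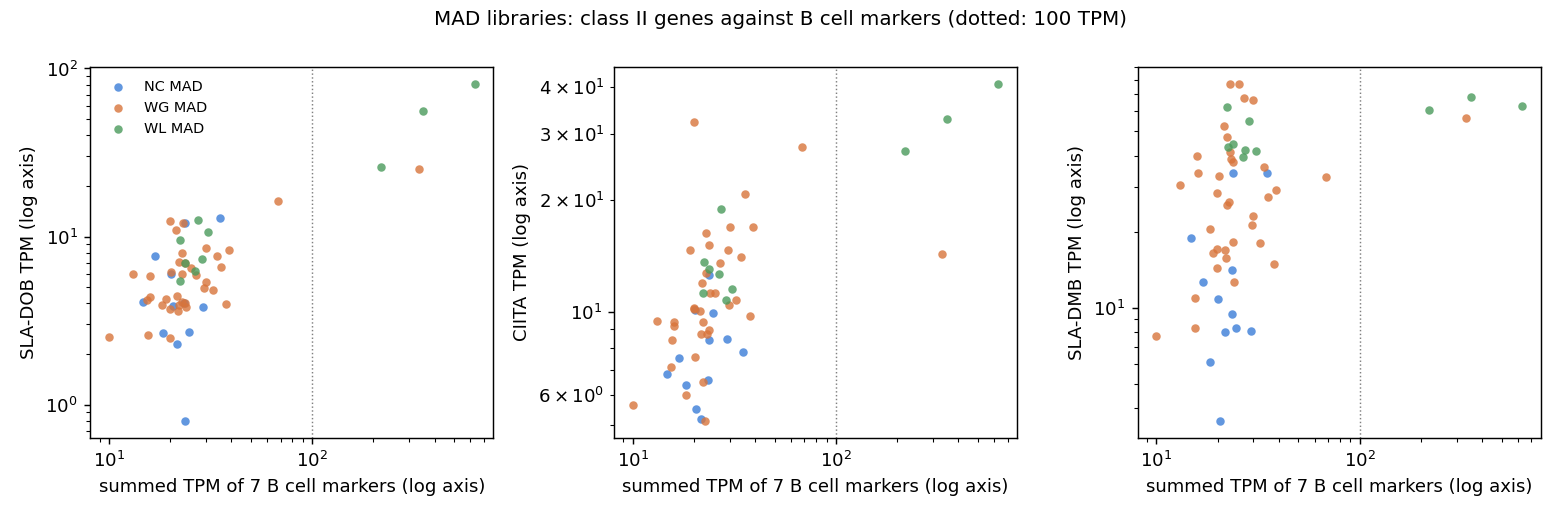
SLA-DOB, CIITA and SLA-DMB (TPM, log axes) against the summed TPM of 7 B cell markers in each MAD library, coloured by nutritional group, with a dotted line at 100 TPM. The 4 libraries past the line hold the highest SLA-DOB levels, and SLA-DMB in them lies within the range of the others.

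Without these 4 libraries, a choice made after seeing the data, 2 members stayed called in MAD within set 2. SLA-DMA changed by 1.01 (adjusted p = 0.00338, edgeR) and SLA-DOA by 0.73 (adjusted p = 0.00537). The other members had 0.45 (CD74, adjusted p = 0.0172, under the fold of 1.5), 0.42 (SLA-DRA, adjusted p = 0.101), 0.38 (SLA-DQB1, adjusted p = 0.164), 0.30 (CIITA, adjusted p = 0.208), 0.24 (SLA-DOB, adjusted p = 0.414) and −0.01 (SLA-DMB, adjusted p = 0.976; edgeR for each). SLA-DMA in ULB was unaffected by this choice and stayed called. Of all PCGs, 5.26% were called higher in MAD. Without the 4 libraries and over both sets, SLA-DQB1 (0.79, adjusted p = 0.0411) and SLA-DRA (0.69, adjusted p = 0.0361, edgeR) were called in MAD. That fit called 381 of 13889 PCGs higher. It did not hold the set: WG MAD had 19 set 1 and 17 set 2 libraries in all, and WL MAD only set 2. SLA-DQB1 and SLA-DRA averaged higher in set 2, so set and nutritional group cannot be told apart in these 2 calls.

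The lists beside the members moved with the same libraries. All 7 B cell markers and all 7 T cell markers were called higher in WL MAD than in WG MAD, with median log2 fold changes of 2.41 and 2.29, as were 6 and 7 with the set as a term (medians 2.18 and 2.25), and 0 of either without the 4 libraries (medians −0.05 and 0.42). Of 7 class I genes, 4 were called higher, among them PSMB8 (1.33, and 0.98 with the set as a term), an immunoproteasome subunit, and TAP1 (1.04 and 0.73), a peptide transporter, and 1 without the 4 libraries. IFNG, the gene of interferon gamma, rose by 1.81 (adjusted p = 0.00511, edgeR) and by 1.35 (adjusted p = 0.0527) with the set as a term. CD40, the costimulatory receptor of antigen-presenting cells, rose by 1.33, and by 1.09 with the set as a term. Of 7 processing genes, 0 were called higher and 1 lower, and of 10 macrophage markers 2 were higher and 1 lower, the scavenger receptor CD163 (−0.79, adjusted p = 0.0188, edgeR). The part of lymphocytes in the members' change from WG to WL in MAD was not tested.

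From NC to WL, which shares its samples with the comparisons above, 15 of 32 member values were called higher and 0 lower with all libraries (22 and 1 at an unadjusted p below 0.05). Of all PCGs, the share called higher in GOM was 15.4%, that in MAD 15.2%, that in RAD 10.2% and that in ULB 5.39%. SLA-DQB1 and SLA-DMB were called in all 4 ATs, SLA-DQB1 by 1.04, 1.67, 1.01 and 0.88 and SLA-DMB by 1.36, 1.74, 1.41 and 1.02 in GOM, MAD, RAD and ULB. SLA-DRA (1.24), SLA-DMA (0.76) and CIITA (1.10) were called in MAD, SLA-DOA in MAD (1.03) and RAD (0.67), and SLA-DOB in GOM (0.78) and MAD (2.01). NC and WL libraries did not overlap in TPM for SLA-DQB1 in GOM (166 to 375 against 408 to 863 TPM), for SLA-DRA (99.3 to 239 against 278 to 670 TPM), SLA-DMB (3.54 to 34.3 against 39.6 to 68.1 TPM) and SLA-DOA in MAD, and for SLA-DMB in RAD (4.36 to 25.6 against 28.2 to 54.3 TPM). How many of all PCGs were without overlap was not counted. NC was mostly set 1 and WL mostly set 2, and SLA-DQB1, SLA-DMB and SLA-DRA were themselves higher in set 2.

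These counts fell with the set as a term, to 8 values called higher, 5 of them among the 15. They were SLA-DMB in GOM (1.02, adjusted p = 0.0496, edgeR), SLA-DRA (1.06), SLA-DMA (1.80) and SLA-DOA (1.13) in MAD, SLA-DMA (1.34), SLA-DOA (0.76) and CIITA (0.75) in RAD, and CIITA in ULB (1.28). Of all PCGs, this fit called 7.91% higher in GOM, and in the order MAD, RAD, ULB 4.52%, 4.37% and 3.05%. Within set 2, which held 3 NC MAD, 3 NC RAD and 2 NC ULB libraries, 7 values were called, among them SLA-DMA in MAD (1.78, adjusted p = 0.00963) and RAD (1.35, adjusted p = 0.0113), SLA-DMB in RAD (0.65, adjusted p = 0.0249) and CIITA in ULB (1.28, adjusted p = 0.0135, edgeR for each). Of all PCGs, 2.75% were called higher within set 2 in MAD, 4.86% in RAD and 3.76% in ULB. SLA-DQB1 was in none of the calls of either fit. In GOM, where NC had 9 set 1 libraries and WL 2 set 1 and 8 set 2 libraries, set 1 alone called 0 of 8 members.

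Between ATs of the same nutritional group, the called members were higher in GOM in NC. In WL they were higher in GOM or MAD than in RAD or ULB. In NC, SLA-DRA ranged from 140 to 447 TPM in GOM, from 99.3 to 239 TPM in MAD, from 89.3 to 246 TPM in RAD and from 91.5 to 211 TPM in ULB. It was lower than in GOM by −0.75 in MAD (adjusted p = 0.00642), −0.75 in RAD (adjusted p = 0.00212) and −1.01 in ULB (adjusted p = 0.00932, edgeR for each). SLA-DMA was lower by −0.94, −0.90 and −1.18, without overlap between GOM (33.2 to 71.1 TPM) and ULB (10.6 to 32.4 TPM). How many of all PCGs were without overlap between these groups was not counted. SLA-DOA was lower in RAD (−0.73) and ULB (−0.91). These were 8 of 48 member values, all with GOM higher, and 0 of 24 values among the other 3 ATs. Of all PCGs, 10.2% were called lower in MAD than in GOM, 9.59% in RAD and 12.1% in ULB. With the set as a term, 10 values were called, 7 of them among the 8, with SLA-DQB1 (−0.73) and SLA-DMB (−0.87) in MAD and SLA-DMB in RAD (−0.66) added. Of all PCGs, this fit called 8.4% lower in MAD, 7.79% in RAD and 6.81% in ULB. Macrophage markers also stood higher in NC GOM: all 10 were called lower in MAD, and 6 and 2 of them in RAD and ULB. NC GOM also had the lowest median depth of the 12 groups (9262929 counts) and the lowest median share of TPM on PCGs (79.0%). The part of depth and of this share in the lead of GOM was not tested.

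In WG, 1 of 48 member values was called: SLA-DOB was lower in ULB (4.42 ± 1.81 TPM, SD, n = 38) than in GOM (7.57 ± 3.15 TPM, SD, n = 45) by −0.67 (SE 0.15, adjusted p = 6.72e-05, edgeR) and by −0.65 (adjusted p = 1.64e-05) with the set as a term. Of all PCGs, 10.3% were called lower in this pair, and 10.7% with the set as a term. In WL, 11 were called, all lower in RAD or ULB, and 0 of 8 members were called between GOM and MAD. SLA-DOB was lower than in GOM by −0.74 in RAD (8.13% of PCGs called lower) and by −0.71 in ULB (9.81%), and with the set as a term by −0.66 (adjusted p = 0.0429, edgeR, 7.14% of PCGs) and −0.64 (adjusted p = 0.0637). Against MAD, SLA-DRA (−0.70), SLA-DOA (−0.59), SLA-DOB (−2.01) and CD74 (−0.75) were lower in RAD (5.76% of PCGs), and these 4 and SLA-DQB1 (−0.62) were lower in ULB (8.89%). Between WL MAD and RAD, where same-numbered libraries deviated together in 10 of 10 cases, a replicate block left SLA-DOA at −0.58 (adjusted p = 0.0015, edgeR), under the fold of 1.5. Without WL MAD replicates 1, 6 and 7, 0 of these 9 values against MAD were called.

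Whether a member's change differed between ATs was tested in 1 fit of all libraries (15068 PCGs, interaction of nutritional group and AT), which treated the ATs as independent. From NC to WG, 0 of 8 members differed between ATs (1 at an unadjusted p below 0.05), beside 8.8% of all PCGs. With the replicate number as a block, SLA-DMA (adjusted p = 0.00303) and SLA-DRA (adjusted p = 0.028, edgeR) differed. From WG to WL, SLA-DOB (adjusted p = 0.000628) and CD74 (adjusted p = 0.0473, edgeR) differed, beside 6.41% of all PCGs. With the set as a term, SLA-DRA differed between ATs from NC to WG (adjusted p = 0.0113, beside 8.34% of all PCGs), and SLA-DOB (adjusted p = 0.000286), CD74 (adjusted p = 0.00282) and CIITA (adjusted p = 0.033, edgeR) from WG to WL, beside 13.1%. Within set 2, SLA-DOB differed from WG to WL (adjusted p = 0.0118), beside 4.43%. Without the 4 lymphocyte-rich MAD libraries, no member differed from WG to WL, with all libraries or within set 2. For the other members, a change called in MAD and not in another AT was not shown to differ between ATs.

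Within WG, the members mostly rose and fell together from library to library. Relations were computed on log2(TPM + 1) within each AT and library set (17 to 27 libraries), since a relation over both sets would follow the sets. Of 224 relations among members, 150 passed a permutation test at an adjusted p below 0.05, and 0 of those that passed were negative. How many relations among other PCGs would pass was not counted. The lowest r, −0.53 for SLA-DMA with CD74, did not pass. Without the 2 libraries farthest from the median, the lowest r of this pair was −0.07. The WG GOM library with 3 members at 0 was kept. SLA-DQB1 and SLA-DMB were most alike, with Pearson r between 0.58 and 0.95 (median 0.86) and Spearman rho between 0.46 and 0.89, in 8 of 8 cases, and r stayed between 0.47 and 0.86 without the 2 libraries farthest from the median. SLA-DRA and SLA-DOA followed with r between 0.53 and 0.93 (8 of 8). The DM pair had r between −0.20 and 0.88 (median 0.68, 6 of 8). CIITA, the coactivator, had its lowest median r with SLA-DRA (0.39, 3 of 8) and its highest with SLA-DMB (0.64), SLA-DQB1 and SLA-DMA (0.61 each). CD74 and SLA-DMA had the lowest median, 0.37 (3 of 8). Libraries of the same number in 2 ATs of WG were compared as well, although the labels do not say that a number is 1 pig. SLA-DRA passed in 0 of 6 pairs of ATs in set 1 (r from −0.14 to 0.43) and in 3 of 6 in set 2 (r from 0.07 to 0.78). The log2 ratio of SLA-DQA1 to SLA-DRA passed in 6 of 6 pairs in both sets, with r from 0.64 to 0.91 in set 1 and from 0.77 to 0.88 in set 2.

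Among the 10 genes most like SLA-DRA over all RNA-seq libraries, after the mean of each group was removed, were RHOH (r = 0.72), CASP1 (0.72), CCR3 (0.72), PSME2 (0.69), ACSL5 (0.69) and AIF1 (0.69). RHOH and AIF1 are genes of blood cells, and PSME2 encodes a proteasome activator subunit. Within library sets the r of these 6 genes were 0.61 to 0.70. The genes most like CIITA were MOV10 (0.79), PREX1 (0.79), NLRC5 (0.77), FMNL1 (0.76), LRCH4, P2RY8, FMNL3, PIK3CD, TYK2 and PIK3R5. NLRC5 is the coactivator of class I genes and a relative of CIITA. Removing the means of the sets changed the members' likeness to SLA-DRA: SLA-DMA went from 0.13 to 0.66 and SLA-DOA from 0.45 to 0.75, while SLA-DQB1 went from 0.75 to 0.70. These values describe libraries that share depth and set.

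In the Hi-C data, a boundary between topologically associating domains (TADs) ran through the class II locus. TADs are stretches of chromatin that contact themselves more than their neighbours, here called per sample in 20 kb bins. A boundary stood at the upstream end of SLA-DOB, about 215 kb from the start of SLA-DRA, in 213 of 240 samples (88.8%). SLA-DOB and SLA-DMB were in the same TAD in 16 of 240 samples (6.67%), with the highest share in WG GOM (7 of 46) and 0 in all 4 WL groups. SLA-DMB, SLA-DMA and SLA-DOA shared a TAD in 240 of 240 samples, and SLA-DRA and SLA-DQB1 in 237. SLA-DQB1 and SLA-DOB shared one in 223 samples. In most samples, the presenting chains and SLA-DOB were thus on one side of the boundary, and both DM chains and SLA-DOA on the other. A sample held a median of 4952 TADs (4485 to 5689). Hi-C was made from nuclei of the adipocyte layer, whereas the RNA came from whole tissue, so the domain map and the levels do not come from the same mixture of cells.

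**Figure D5:**
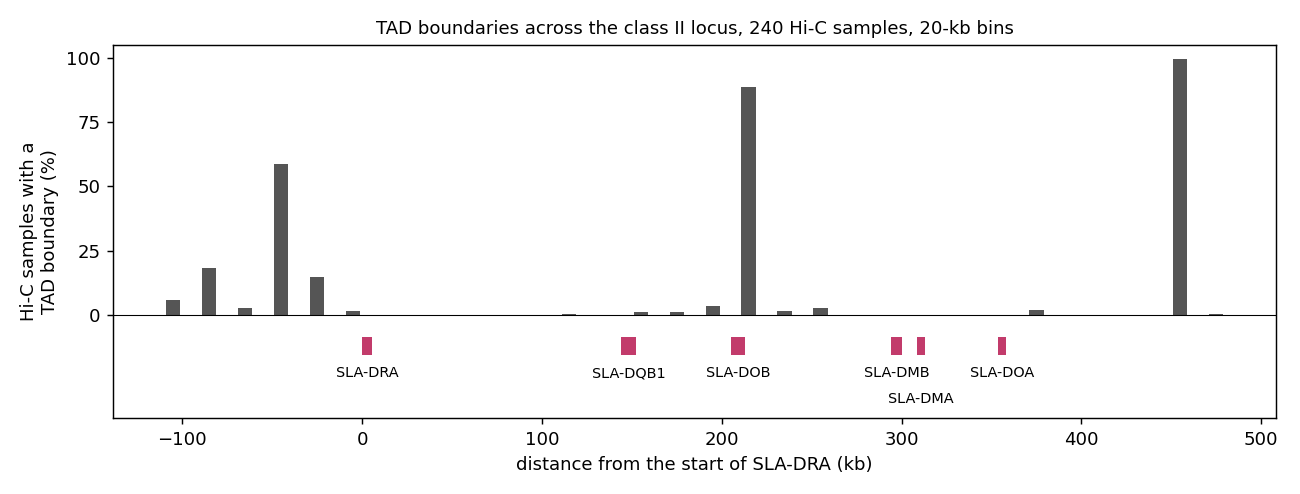
Share of the 240 Hi-C samples with a TAD boundary (%) by distance from the start of SLA-DRA (kb, 20 kb bins), with the 6 class II chains below the axis. The boundary by SLA-DOB was present in 88.8% of samples, between SLA-DQB1 and SLA-DMB.

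The A-B index of the same Hi-C samples is positive in active compartments and negative in inactive ones. The 20 kb bins of the members (7 bins, since SLA-DMA and SLA-DMB share one) had positive means in all 12 groups. They were lowest for SLA-DRA, from 0.0894 in WL GOM, where 5 of 10 samples were positive, to 1.28 in WG RAD, and highest for CD74, from 7.91 to 9.61. Called differences (limma, a change of more than 0.75 in the index at adjusted p below 0.05) were counted for these 7 bins. Between nutritional groups they numbered 8 over 12 comparisons of the 7 bins. This share is not far above the 7.15% of all bins called over the same comparisons. All 8 were upwards, as were most calls over all bins. From NC to WL, for instance, 17254 bins were called upwards and 667 downwards in RAD, and 10867 and 585 in GOM. When the samples were quantile normalized to each other, these became 6177 and 4814 in RAD and 2947 and 1275 in GOM, and 3 of the members' 8 calls were left. The DM bin rose from 2.68 to 3.53 between NC and WG MAD (SE of the difference 0.14, adjusted p = 3.02e-05), where 4.47% of all bins were called. From NC to WL, the DM bin rose in MAD (by 1.14) and RAD (0.91), the SLA-DOA bin in MAD (0.76) and RAD (0.93), and the CIITA bin in GOM (0.76), RAD (0.98) and ULB (1.03). Of all bins, 10.1%, 11.2%, 15.8% and 13.6% were called from NC to WL in GOM, MAD, RAD and ULB. Between ATs 7 differences were called over 18 comparisons of the 7 bins. This is a smaller share than the 11.4% of all bins called over the same comparisons. In NC, the DM bin (0.81) and the CD74 bin (1.36) were higher in ULB than in MAD (11.2% of bins). After quantile normalization the CD74 bin was at 8.73 in MAD and 8.83 in ULB, and the DM bin at 2.95 and 3.68. The SLA-DQB1 bin of NC was lower in ULB (0.768) than in RAD (1.77; 14.9%). In WL, the SLA-DRA bin was higher in MAD (0.87, 13%) and RAD (1.17, 17.7%) than in GOM, the SLA-DQB1 bin higher in RAD than in GOM (0.92), and the CD74 bin higher in ULB than in MAD (1.13, 7.67%). In RAD, the DM bin went from 2.99 in NC to 3.73 in WG, a difference of 0.739 (adjusted p = 0.00152, limma) just under the limit of 0.75.

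H3K27ac marks active enhancers and promoters, and the deposited tables rank stitched enhancer regions and name the strongest super-enhancers. Most tables pooled samples, each gave 1 value per region, and regions within 2 kb of starts had been left out, so no test was made. The NC MAD table rested on 1 H3K27ac sample, as did 1 WG RAD table, the one named below. The NC RAD table rested on 2. Within 10 kb of a member, a region was listed in 136 of 144 pairs of member and table, and a super-enhancer in 44. SLA-DMA was near a super-enhancer in 13 of 18 tables and SLA-DMB in 12, followed by SLA-DOA (7), CIITA (5), SLA-DQB1 (4), SLA-DOB (2) and CD74 (1). Neighbouring members can share 1 stitched region, so counts of members are not counts of separate regions. The best rank was 278 for SLA-DMA, SLA-DMB and SLA-DOA alike, and 193 for SLA-DQB1 and SLA-DOB alike. SLA-DRA had a region in 18 of 18 tables and a super-enhancer in 0. NC RAD, the table with the highest share of all genes near a super-enhancer (26.6%), had one near 7 of 8 members. WL RAD (14.96% of all genes) and 2 of the 10 WG tables (9.42% in MAD and 9.91% in RAD) had one near 0. Of 19560 annotated genes, between 62.4 and 81.9% had a region within 10 kb and between 5.48 and 26.6% a super-enhancer, depending on the table.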

How the data were processed

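Expression was taken from the TPM and the estimated counts per gene that the authors deposited, made with kallisto 0.43.0 (strand-aware, bias-corrected) on Sscrofa11.1 and summed by gene with tximport. kallisto assigned reads to 1 reference allele per gene, so values of polymorphic chains and of members with near-identical copies are uncertain. Of the estimated counts, 17.8% were 0 and none of the others was whole, and they were rounded to whole numbers. Columns that matched no sample (9 per table) were not used. TPM is also lower where less of a library falls on PCGs, so means in TPM and fold changes from counts can differ.

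Calls used edgeR 4.0.16 (TMM, quasi-likelihood, 2-sided) on PCGs that exceeded 0.5 TPM in 80% or more of either group's libraries, at Benjamini-Hochberg adjusted p below 0.05 and a fold above 1.5, as log2 fold change of the second group over the first (12 comparisons of nutritional groups and 18 of ATs). The fits were checked on simulated counts. Libraries held 3337098 to 22939420 counts (median 16791659). The deposited A-B index (a score per 20 kb bin) was tested with limma 3.58.1 over 113298 bins. The deposited TAD lists, called per sample in 20 kb bins, were described without a test. So were the ROSE tables of H3K27ac signal in single or pooled samples, made from BWA 0.7.15, SAMtools 1.3.1 and SICER per the labels. Relations used Pearson and Spearman permutation tests with 100000 resamples (smallest p 1e-05), adjusted within their family. The labels do not say that every number is a separate animal, so p-values measure the spread between these samples. Tables of the 2 noncoding transcript classes gave only the share of TPM on PCGs. DESeq2 1.42.0 was an alternative. The members, the gene lists and the marker lists were chosen with earlier results of these data known. Named were all members, in each list at most 4 called genes with the smallest adjusted p per comparison plus a few fixed genes, and, of the 10 genes most like SLA-DRA and the 10 most like CIITA, those with a symbol. Some genes are not reported here.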

Additional observations from a re-analysis of the deposited data

Results flagged for a closer look

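In groups of 5 to 10 libraries, a library stood far from the others, by Dixon's criterion, in 5 of 48 pairs of member and group, where chance flags about 1 in 20. SLA-DMA had a highest library of 59.1 TPM in WL RAD (median 26.9 TPM). SLA-DOA had a lowest library of 4.84 TPM in WL ULB (median 8.72 TPM). CIITA had a highest library of 26 TPM in WL ULB (median 12.2 TPM). SLA-DOB had a lowest library of 0.482 TPM (median 3.37 TPM) and CD74 a highest library of 1296 TPM (median 782 TPM) in NC ULB, which had 5 libraries.

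The change from WG to WL differed between ATs for SLA-DOB (adjusted p = 0.000628) and CD74 (adjusted p = 0.0473, edgeR interaction of nutritional group and AT). Both had their largest change in MAD, and neither passed without the 4 MAD libraries with more than 100 TPM of B cell markers (adjusted p = 1 for both).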

How the results depend on the processing

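All counts here are member values called over the ATs. The member values called with all libraries stayed called in the same direction for 44 of 45 with DESeq2, 44 of 45 with RLE normalization and 42 of 45 without a filter on low genes. With the library set as a term it was 21 of the 36 that could be fitted, with the share of TPM on PCGs as a term 30 of 45, and 15 of 45 over libraries with at least 88% of TPM on PCGs, which left out 40 libraries. From NC to WG, the 4 called higher became 0 within set 2, with or without the MAD libraries above 100 TPM of B cell markers, and 1 at 88%, and the 0 called lower became 1 with DESeq2, RLE normalization, the set or the share as a term, and set 1. From WG to WL, the 6 became 2 within set 1 (SLA-DMB and SLA-DOB in GOM, with 2 WL libraries), 3 within set 2 without the B cell libraries, 0 at 88%, and 2 with the share as a term or without the B cell libraries. From NC to WL, the 15 became 8 with the set as a term, 0 within set 1, 7 within set 2 with or without the B cell libraries, and 9 at 88%, where 1 was lower. Between ATs of NC, the 8 became 0 within set 2 and 3 at 88%. In WG, the 1 became 3 within set 1 and 2 with the share as a term. In WL, the 11 became 1 within set 2 without the B cell libraries, 1 at 88%, 4 with the share as a term and 2 without the B cell libraries. Fits within a set cover only comparisons with 2 or more libraries per group. The 2 members whose change from WG to WL differed between ATs became 1 with RLE normalization, without a filter or within set 2, and 0 at 88% or without the B cell libraries, and from NC to WG 0 became 1 with the set as a term. Within set 2 without the B cell libraries, SLA-DMB in WL MAD against WG MAD was at −0.012 and SLA-DOB in WL MAD against NC MAD at −0.36. Of the A-B index, the 8 calls between nutritional groups became 17 at a difference of 0.5 and 3 after quantile normalization, and the 7 between ATs became 15 and 4. Of 18 relations of the same number between ATs, 17 passed over both sets and 9 within set 1. The fits that left out 1 library were run for each of the 5 NC ULB libraries and for WL MAD replicate 6. They gave 4 calls from NC to WG, 4 from WG to WL, 13 to 16 from NC to WL, 7 to 8 between ATs of NC, 6 in WL, and 8 to 10 and 5 to 8 for the A-B index. Apart from these fits' own construction, the cause was not tested.

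The labels give the same replicate numbers to several groups but do not say that a number is 1 pig. Samples of the same number deviated together (r above 0.1) in 276 of 311 cases between ATs and in 28 of 107 between nutritional groups, and correlated best with their own number in 179 and 11. Only the means of the 12 groups had been removed for this, not those of the library sets. As 42 of 45 WG numbers stayed within 1 set, a shared set alone can raise these r. They do not show that a number is 1 pig. Every pair did so between WG MAD and ULB (30 of 30) and between WL MAD and RAD (10 of 10), and elsewhere the samples were taken to share only a number. With the replicate number as a block, 31 of 45 calls stayed. The counts were 1 from NC to WG, 12 higher and 1 lower from NC to WL, 5 from WG to WL, 7, 1 and 11 between ATs, and 2 (SLA-DMA and SLA-DRA) and 3 for the difference between ATs.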

Other observations

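In GOM from WG to WL, where no member was called and 2.71% of all PCGs were called lower, 2 of 7 processing genes, 1 of 5 dendritic cell markers and 1 of 10 macrophage markers were called lower and 0 of these lists higher. MARCHF1, the ubiquitin ligase that withdraws class II from the surface, fell by 0.69 on the log2 scale (SE 0.18, adjusted p = 0.00822, edgeR) and by 0.75 with the set as a term. CD163, the scavenger receptor of resident macrophages, fell by 1.06, and CTSD, a lysosomal protease, by 0.87. FLT3, a receptor of dendritic cell development, fell by 0.61 in GOM and by 0.69 in RAD, and remained called in both with the set as a term.

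The peptide transporters and immunoproteasome subunits of the class I pathway, some of which lie in the same complex as the class II chains, moved from NC to WL. Of 7 class I genes, 6 were called higher in MAD, 4 in GOM, 3 in RAD and 0 in ULB with all libraries, and with the set as a term 1 in ULB and 0 in the other ATs. PSMB8 rose by 1.88 in MAD (adjusted p = 7.6e-05, edgeR), against 1.25 (adjusted p = 0.0759) with the set as a term. The 1 call with the set was NLRC5 in ULB (0.92, adjusted p = 0.043).

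The row that the study names SLA-DQA1 averaged 285 ± 165 TPM in NC MAD (SD, n = 12) and 556 ± 288 TPM in WG MAD (SD, n = 36). It rose there by 0.72 on the log2 scale (SE 0.25, adjusted p = 0.036, edgeR) and by 0.68 (adjusted p = 0.0425) with the set as a term. Of the 4 ATs, it was called in MAD alone. Its mean also went from 333 to 592 TPM in RAD and from 321 to 521 TPM in ULB, and from 664 to 638 TPM in GOM. Whether its change differed between ATs is not given here.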
